A study of Mus musculus with 6 samples.

Results

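The proteases that remodel cartilage matrix, and the tissue inhibitors that hold them in check, were followed across 2 layers of chondrocytes in the spheno-occipital synchondrosis of the mouse, a growth cartilage that joins bones of the skull base. The genes are those whose symbol is Mmp, Adamts, Adamtsl, Htra or Timp with a number: 55 of the 24346 symbols listed, made up of 23 matrix metalloproteases, 19 ADAMTS proteases, 5 ADAMTS-like proteins, 4 HTRA serine proteases and all 4 TIMPs. The comparison is between 3 libraries with the code FP and 3 with the code RR in their titles, each group carrying the numbers 11, 14 and 16. The series compares flat with round chondrocytes, but no label spells the codes out, so they are kept as codes. Mice of both groups carried Gli1CreERT2, a tamoxifen-inducible Cre recombinase driven by Gli1, together with a floxed Tomato reporter, and all were given tamoxifen on postnatal day 3. Because FP and RR share the genotype and the treatment, neither is an untreated control of the other. The tissue label is basilarcartilage, laser microdissection of frozen tissue supplied the cells, and no age at collection is stated in the sources at hand. No label says that the libraries came from separate animals, so the p-values below reflect only sample-to-sample spread, part or all of which may be technical.

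Matrix metalloproteases and ADAMTS proteases are zinc enzymes made as inactive precursors. The metalloproteases cut collagens and gelatin, while ADAMTS enzymes trim procollagens, cut proteoglycans such as aggrecan and versican, or act on fibrillin microfibrils. ADAMTS-like proteins have the ancillary domains but no catalytic one, HTRA enzymes are serine proteases, and TIMPs bind the active site of metalloproteases. In growth cartilage, Mmp13 is known from the late hypertrophic zone and Mmp9 from the cells that resorb it.

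Values are FPKM (fragments per kilobase, scaled to the library), which correct for transcript length, so levels can be compared between genes. In order of libraries 11, 14 and 16, 1 fragment on a transcript of 2000 bp was worth about 0.128, 0.252 and 0.186 FPKM in FP and 0.194, 0.296 and 0.174 FPKM in RR. RR 14 was the shallowest library and correlated least with the others across genes (Pearson's r of 0.766 to 0.817, with genes not being independent replicates). The label of cartilage matched the markers: 8 chondrocyte markers summed to 48465 to 83957 FPKM in FP and 42670 to 89784 FPKM in RR. This sum was mostly Col2a1, at 41112, 74248 and 69551 FPKM in FP and 38697, 63124 and 81873 FPKM in RR. Matn1 was the lowest of the 8, at 2.07 FPKM in RR 14 to 14.8 FPKM in RR 11. Hypertrophic markers summed to 687 to 879 FPKM in FP against 21.6 to 67.9 FPKM in RR, with 5 of 6 past the threshold as higher in FP (the other, Ibsp, was at 138, 191 and 90.8 FPKM in FP and 41.6, 10.7 and 7.18 FPKM in RR, limma adjusted p = 0.0571), and resting zone markers to 192 to 291 FPKM in FP against 2760 to 3661 FPKM in RR, with 6 of 6 past the threshold as lower in FP. Over all tested genes 0.554% passed as higher in FP and 0.412% as lower. The marker genes were chosen after their values were seen, so these counts describe them and no more. Markers of skeletal muscle summed to 257, 142 and 239 FPKM in FP and 233, 35.3 and 48.2 FPKM in RR (0 of 8 past the threshold).

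Gelatinase A, its membrane-bound activator, 2 HTRA proteases, 2 TIMPs and Adamts10 made up most of the expression of these genes in both layers. The 7 genes averaging 20 FPKM or more (Mmp2, Mmp14, Htra1, Timp2, Htra3, Adamts10 and Timp3) held 68.6%, 70.9% and 76.4% of the summed FPKM of all 55 genes in FP libraries 11, 14 and 16, and 70.8%, 72.6% and 82.8% in RR. Of the 55 genes, 31 reached a 6-library mean of 1 FPKM and entered the test, with the lowest at 1.03 FPKM. The other 24 had means of 0.0642 to 0.995 FPKM and reached 2.37 FPKM at most in any library, and 13 of them were listed at 0 in at least 1 library. A gene that entered the test only through the group where it is high had to differ, so counts over the 31 describe these genes and no more.

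None of the 31 tested genes passed the threshold between FP and RR (limma on log2(FPKM + 1), Benjamini-Hochberg adjusted p under 0.05 over all 14789 tested genes), where 143 genes or 0.967% of all tested genes did. At an unadjusted p under 0.05 in limma there were 6 of 31, against 10.3% of all tested genes. Groups did not overlap in 8 of 31, against 16% of all tested genes: Timp1, Adamts14, Adamts1 and Mmp16 were higher in every FP library than in any RR library (4 genes, against 8.74% of all tested genes), and Timp2, Adamts6, Adamts17 and Adamts12 were lower in every FP library (4 genes, against 7.28%). By their estimates 11 were higher in FP and 20 lower, with a median log2 difference of -0.19 beside 0.02 over all tested genes. Log2 differences are FP minus RR on the log2(FPKM + 1) scale throughout, which understates the difference of low genes.

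**Figure D1:**
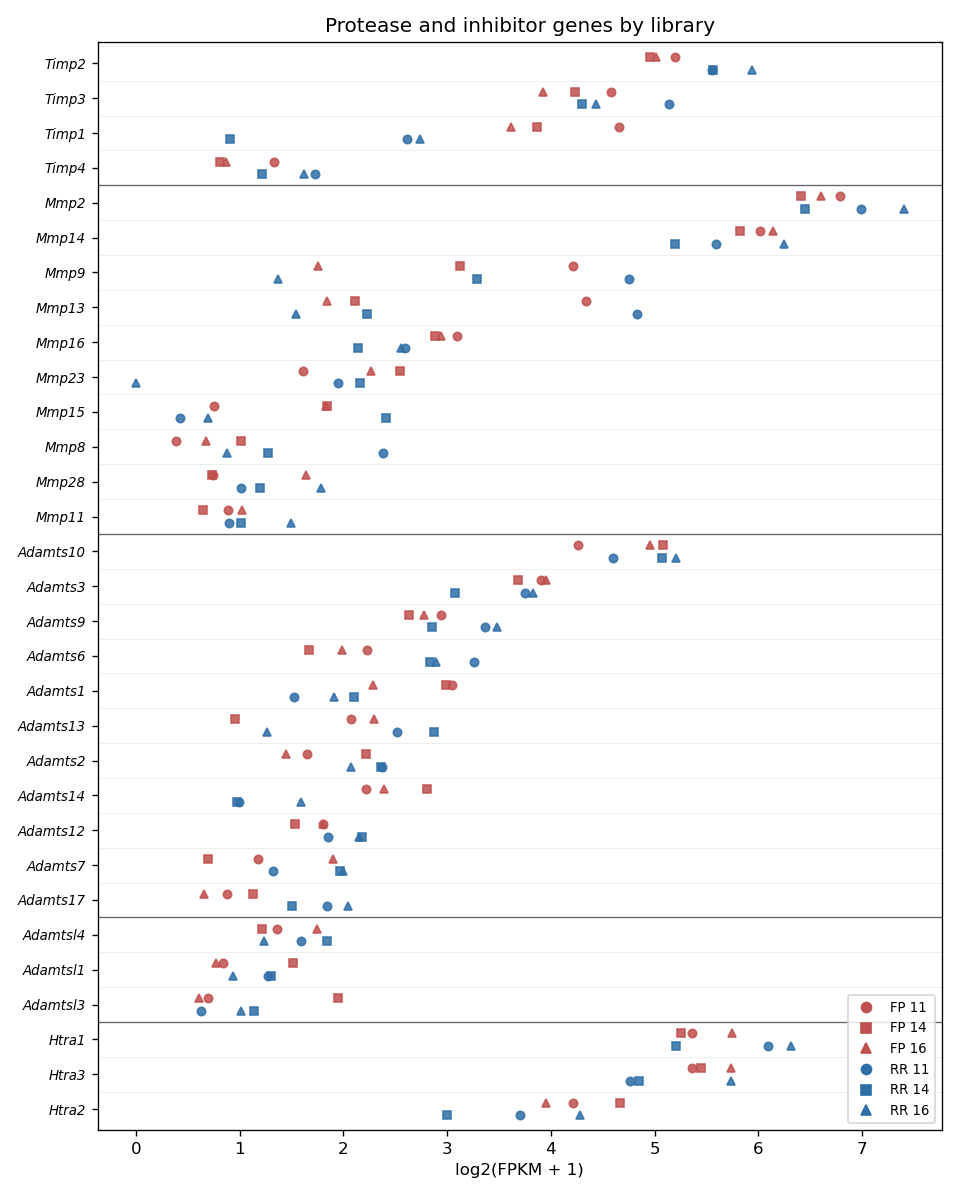
Level of each of the 31 tested genes in each library, as log2(FPKM + 1) on the horizontal axis. Genes run down the page by family and mean level, red points are FP and blue points RR, and the marker shape gives the library number. Mmp2 lies furthest right in every library, and Mmp13 and Mmp9 are spread widely along the axis in both groups.

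Summed by family, the levels of the 2 groups overlapped throughout. The 23 metalloproteases summed to 228, 172 and 193 FPKM in FP libraries 11, 14 and 16, against 247, 159 and 259 FPKM in RR. The 19 ADAMTS genes summed to 67.8, 77.1 and 78.7 FPKM in FP and 76.6, 87.0 and 88.2 FPKM in RR. Only 1 of 3 RR sums for ADAMTS lay within the FP range, and these sums were not tested. The 4 TIMPs summed to 84.2, 62.2 and 57.6 FPKM in FP and 87.8, 67.1 and 88.6 FPKM in RR. Summed metalloprotease over summed TIMP FPKM was 2.71, 2.76 and 3.35 in FP and 2.82, 2.36 and 2.93 in RR, so this ratio overlapped too. The 4 HTRA genes summed to 98.0, 105 and 120 FPKM in FP and 106, 70.8 and 152 FPKM in RR. The 5 ADAMTS-like genes were the lowest family, with sums of 3.81, 8.32 and 3.91 FPKM in FP and 5.23, 6.75 and 4.86 FPKM in RR.

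Among the metalloproteases, the pair that forms the pro-Mmp2 activation complex dominated. Mmp2, gelatinase A, ranked first of all 55 genes in each of the 6 libraries, at 109, 84.05 and 96.4 FPKM in FP libraries 11, 14 and 16 and at 126, 86.5 and 168 FPKM in RR. The RR values ran higher and wider but overlapped with FP, with means of 96.7 ± 12.7 FPKM in FP and 127 ± 40.8 FPKM in RR (SD, n = 3 each). The log2 difference was -0.35 (95% confidence interval -1.06 to 0.37, limma adjusted p = 0.802). Mmp14, the membrane-type protease that activates pro-Mmp2, was at 63.8, 55.6 and 69.4 FPKM in FP, against 47.1, 35.6 and 75.1 FPKM in RR. The highest Mmp14 value was an RR one, and the log2 difference was 0.32 ± 0.32 (SE, limma adjusted p = 0.826). Together Mmp2 and Mmp14 held 76.1%, 81.4% and 85.9% of the metalloprotease FPKM in FP and 70.3%, 77.0% and 93.7% in RR. Timp2, the inhibitor that bridges Mmp14 and pro-Mmp2 in that complex, was also abundant in both layers and is described with the TIMPs.

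The other membrane-type metalloproteases were lower. Mmp16, which like Mmp14 can cut pro-Mmp2, was at 7.54, 6.39 and 6.67 FPKM in FP libraries 11, 14 and 16 and at 5.05, 3.42 and 4.89 FPKM in RR. Every FP library exceeded every RR library, with a log2 difference of 0.54 ± 0.26 that did not pass (SE, limma adjusted p = 0.540). Mmp15 ran from 0.679 to 2.58 FPKM in FP and from 0.344 to 4.32 FPKM in RR, and Mmp24 and the glycolipid-anchored Mmp17 and Mmp25 were among the untested genes, as were Mmp19 and Mmp21. Mmp23 was at 2.06, 4.83 and 3.81 FPKM in FP, against 2.85 and 3.46 FPKM in RR 11 and RR 14, and it was the only tested gene of the set listed at 0 in a library, RR 16. An FPKM of exactly 0 can be a failed estimate. Mmp11, or stromelysin 3, and Mmp28, or epilysin, stayed at or below 2.44 FPKM.

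Mmp13 and Mmp9, the proteases best known from the chondro-osseous junction, varied more between library numbers than between layers. Mmp13, collagenase 3, was at 19.2, 3.33 and 2.57 FPKM in FP libraries 11, 14 and 16 and at 27.4, 3.67 and 1.91 FPKM in RR. Mmp9, gelatinase B of osteoclasts and related cells, was at 17.5, 7.71 and 2.37 FPKM in FP, against 26.0, 8.80 and 1.59 FPKM in RR. Both genes were highest in number 11 and lowest in number 16 in both groups. Of the 30 tested genes above 0 in every library, these 2 alone had a spread of 5-fold or more inside both groups. It was 7.46-fold in FP and 14.3-fold in RR for Mmp13, and 7.40-fold in FP and 16.3-fold in RR for Mmp9, where the median of the 30 was 1.82-fold in FP and 1.97-fold in RR. The log2 difference between the layers was -0.10 ± 0.90 for Mmp13 (SE, 95% confidence interval -2.15 to 1.95, limma adjusted p = 0.989). It was -0.11 ± 0.86 for Mmp9 (SE, 95% confidence interval -2.06 to 1.84, limma adjusted p = 0.986). Both intervals reach well to either side of 0. The estimate for Mmp13 was 0.88 without RR 11, 0.22 without FP 14 and 0.36 without FP 16, and that for Mmp9 was 0.70 without RR 11 and 0.53 without FP 16, so leaving out a single library turned the direction of each.

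The summed level of 8 osteoclast markers was also highest in number 11 and lowest in number 16 in both groups, and it was carried by Ctsk and Acp5. The 8 markers summed to 102, 50.9 and 12.4 FPKM in FP libraries 11, 14 and 16 and to 105, 40.4 and 18.6 FPKM in RR, with 0 of the 6 tested past the threshold. Cathepsin K, Ctsk, was at 62.3, 19.9 and 5.10 FPKM in FP, against 56.9, 20.9 and 7.29 FPKM in RR. Tartrate-resistant acid phosphatase, Acp5, was at 31.0, 23.5 and 3.06 FPKM in FP, against 32.0, 9.73 and 7.66 FPKM in RR. The other 6 markers were lower and did not have that order in both groups. Calcr, the calcitonin receptor, was at 0.127, 0.560 and 0.205 FPKM in FP and 0.215, 1.47 and 0 FPKM in RR. Dcstamp, a fusion protein of osteoclast precursors, was at 0.620, 0.308 and 0 FPKM in FP and 0.861, 3.23 and 0 FPKM in RR. Ocstamp, Oscar, Atp6v0d2 and Itgb3 stayed at or below 6.40 FPKM, with Ocstamp and Oscar highest in FP 14 among FP libraries and Itgb3 lowest in number 14 in both groups. The 8 osteoblast and osteocyte markers summed to 882, 715 and 234 FPKM in FP and 1643, 350 and 225 FPKM in RR, again highest in number 11 and lowest in 16, with 0 of the 7 tested past the threshold and Bglap, Bglap2 and Sost listed at 0 in some libraries. This sum was nearly all Col1a1, at 596, 453 and 130.0 FPKM in FP and 1077, 185 and 107 FPKM in RR, and Col1a2. The more specific markers did not all follow: Mepe was at 0.156, 1.55 and 0.906 FPKM in FP and 3.55, 1.44 and 0.425 FPKM in RR, and Dmp1 was at 13.2, 4.48 and 2.88 FPKM in FP and 14.1, 2.09 and 2.22 FPKM in RR. The part of these cells in the levels of Mmp13 and Mmp9 was not tested. In captured tissue, fewer cells of a type and less RNA per cell cannot be told apart.

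**Figure D2:**
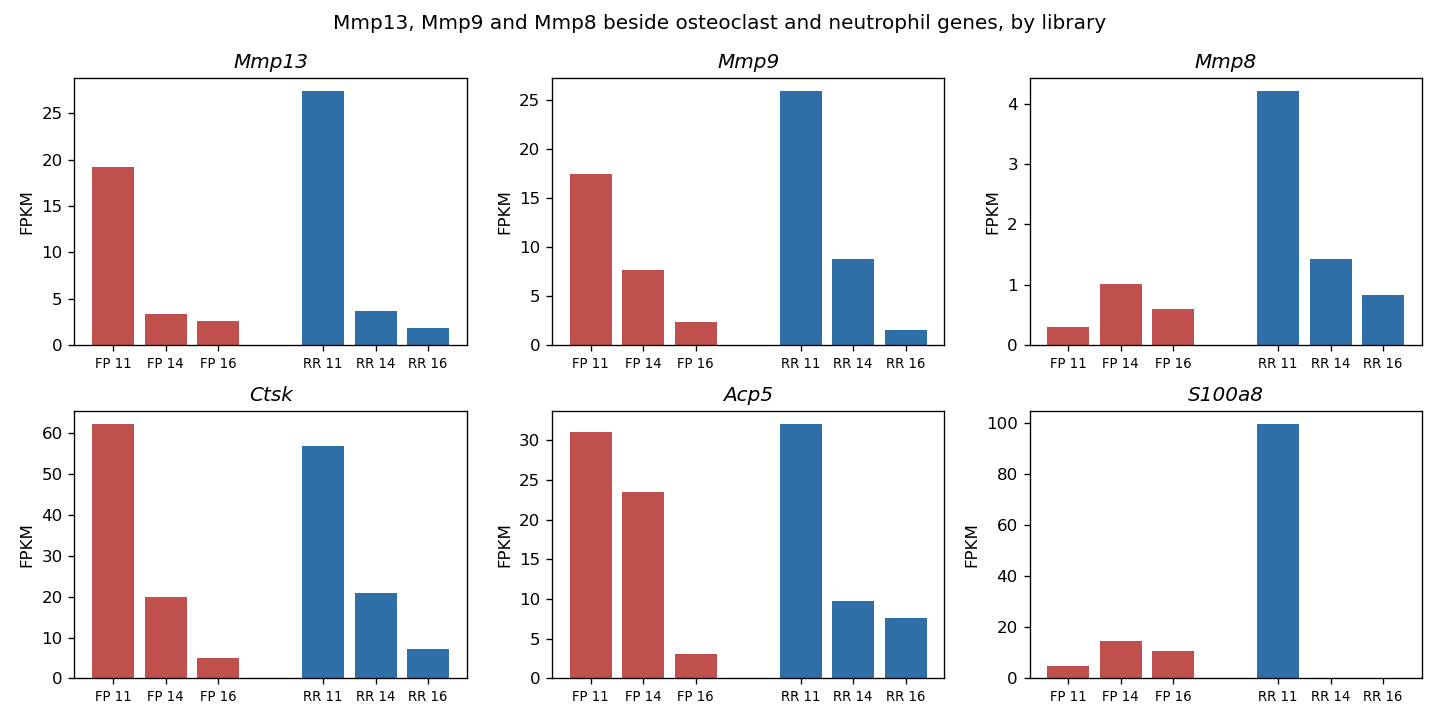
FPKM of Mmp13, Mmp9 and Mmp8 (top row) and of the osteoclast genes Ctsk and Acp5 and the neutrophil gene S100a8 (bottom row) in each library, with FP in red at the left and RR in blue at the right of each panel. Mmp13, Mmp9 and Ctsk are highest in number 11 and lowest in number 16 in both groups, while Mmp8 and S100a8 are highest in RR 11.

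Mmp13 sits at one end of a run of metalloprotease genes on chromosome 9 of which nearly all the rest were close to the detection limit. The run holds 10 Mmp genes at chr9:7272514-7699585 (mm10, GENCODE M21), a stretch of 427.1 kb. Apart from Mmp13, Mmp8 alone was tested, and none of the other 8 (Mmp12, Mmp1b, Mmp3, Mmp1a, Mmp10, Mmp27, Mmp20 and Mmp7) exceeded 2.37 FPKM, with 7 of the 8 listed at 0 in at least 1 library. Mmp1a and Mmp1b are paralogues, and how reads that fit both were counted is not known here, so their levels are uncertain. Mmp8, neutrophil collagenase, was at 0.307, 1.02 and 0.595 FPKM in FP libraries 11, 14 and 16 and at 4.21, 1.42 and 0.839 FPKM in RR (log2 difference -0.82 ± 0.48, SE, limma adjusted p = 0.660). Its highest value came with the neutrophil genes S100a8, at 4.84, 14.4 and 10.6 FPKM in FP and 99.4 FPKM in RR 11, and Elane, at 3.21, 1.28 and 3.73 FPKM in FP and 7.81 FPKM in RR 11. Both were listed at 0 in RR 14 and RR 16. Cd68, Csf1r and Ptprc were also highest in RR 11, at 10.1, 5.25 and 1.83 FPKM. Lyz2 and Adgre1 did not peak there: Lyz2 was at 6.74, 6.96 and 76.4 FPKM in FP and 41.8, 0 and 11.4 FPKM in RR, and Adgre1 was at 0.530, 1.81 and 2.31 FPKM in FP and 0.346, 1.40 and 1.45 FPKM in RR. The 10 blood and macrophage markers summed to 104 to 211 FPKM in FP and 64.1 to 282 FPKM in RR, with 0 of the 8 tested past the threshold, and their part in Mmp8 was not tested.

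Promoter sequences of this run are shown because 7 of its 10 genes share a string of letters, and 6 of those 7 were too low to test. The AP-1 letters TGAGTCA, or TGACTCA on the other strand, were searched in the 250 bases before the RefSeq start of each gene (GRCm38.p6), a window that RefSeq gave for 38 of the 55 genes. They were present in 7 of 38 windows (18.4%), against 5.16% of 27025 genes with a window. All 7 belonged to the 10 genes of the chromosome 9 run, and 0 of the other 28 windows held them. These genes are neighbours of the same family, so the 7 matches may not be independent, and the shares were not tested. The letters TGTGGT or ACCACA, bound by Runx factors, were present in 6 of 38 windows (15.8%), against 15.9% of all 27025. The Mmp13 window (chr9:7272264-7272513, plus strand, 40.4% GC) is given whole, with the Runx letters beginning 118 bases and the AP-1 letters 35 bases before the start in capitals. For the other 6 genes the AP-1 letters are in capitals, with 14 bases on each side and the strand of the gene. A match is a string of letters and not a site shown to be used.
Mmp13 window: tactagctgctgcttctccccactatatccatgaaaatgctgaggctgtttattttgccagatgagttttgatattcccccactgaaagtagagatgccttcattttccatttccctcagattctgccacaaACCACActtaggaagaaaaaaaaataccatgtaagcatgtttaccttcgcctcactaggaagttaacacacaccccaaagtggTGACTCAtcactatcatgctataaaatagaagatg
Mmp12: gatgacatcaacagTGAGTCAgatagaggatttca
Mmp1b: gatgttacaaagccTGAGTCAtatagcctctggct
Mmp3: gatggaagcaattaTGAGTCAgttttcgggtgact
Mmp1a: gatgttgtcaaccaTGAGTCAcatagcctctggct
Mmp10: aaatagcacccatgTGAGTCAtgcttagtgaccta
Mmp7: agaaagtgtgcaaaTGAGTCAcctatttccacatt
The stretch of Mmp12 is chr9:7347316-7347350, with the letters beginning 44 bases before the start, and that of Mmp1b, the one gene on the minus strand, is chr9:7388099-7388133, 93 bases before. Those of Mmp3 and Mmp1a are chr9:7445762-7445796 and chr9:7464054-7464088, 46 and 73 bases before the start. Those of Mmp10 and Mmp7 are chr9:7502265-7502299 and chr9:7692013-7692047, both 63 bases before. Of these 7 genes only Mmp13 had a mean of at least 1 FPKM, and Mmp8, the other tested gene of the run, had no such letters in its window.

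By their estimates, Timp1 was higher in FP and the other TIMPs were lower, and none of the 4 passed. Timp1, a secreted inhibitor of most metalloproteases, was at 24.2, 13.6 and 11.2 FPKM in FP libraries 11, 14 and 16 and at 5.12, 0.877 and 5.69 FPKM in RR. Every FP library exceeded every RR library, and the means were 16.3 ± 6.91 FPKM in FP and 3.89 ± 2.63 FPKM in RR (SD, n = 3 each), a ratio of 4.19. The log2 difference of 1.96 ± 0.51 (SE, 95% confidence interval 0.79 to 3.12) was the furthest from 0 of the 31 tested genes but did not pass (limma adjusted p = 0.18). It was 1.37 without RR 14, the library with the lowest value. Taking the longest annotated transcript, these levels stand for about 83.7, 23.7 and 26.7 fragments in FP and 11.6, 1.3 and 14.4 fragments in RR. The gene lies at chrX:20870166-20874735 (mm10, plus strand) within an intron of Syn1, which runs on the opposite strand and has no exon there.

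Timp2 was the most abundant TIMP in every library. It was at 35.6, 30.1 and 31.4 FPKM in FP libraries 11, 14 and 16 and at 46.0, 46.2 and 60.2 FPKM in RR. The groups did not overlap, and the log2 difference was -0.63 ± 0.25 (SE, 95% confidence interval -1.20 to -0.06, limma adjusted p = 0.432). Timp3, which is held in the matrix and also inhibits ADAMTS enzymes, was at 22.9, 17.8 and 14.1 FPKM in FP, against 34.3, 18.7 and 20.7 FPKM in RR, overlapping at FP 11 (log2 difference -0.38, limma adjusted p = 0.773). Timp4 was low, at 1.52, 0.754 and 0.828 FPKM in FP, against 2.31, 1.32 and 2.07 FPKM in RR (log2 difference -0.52, limma adjusted p = 0.716). Timp1 made up 28.7%, 21.8% and 19.5% of the summed TIMP FPKM in FP, against 5.83%, 1.31% and 6.42% in RR. Timp2 made up 42.3%, 48.4% and 54.5% in FP, against 52.5%, 68.8% and 67.9% in RR. The shares of Timp1 did not overlap between the layers while the summed TIMP level did, and neither was tested.

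**Figure D3:**
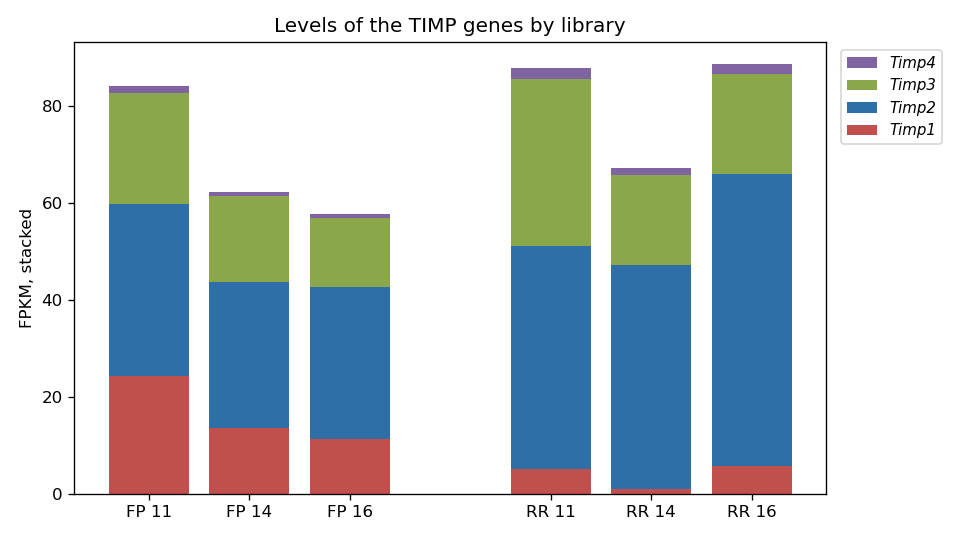
FPKM of Timp1 to Timp4 stacked for each library, FP at the left and RR at the right. The red part, Timp1, is 11.2 to 24.2 FPKM in FP and 0.877 to 5.69 FPKM in RR, while the whole bars of the 2 groups cover overlapping heights.

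Among ADAMTS proteases, the procollagen N-proteinases Adamts2, Adamts3 and Adamts14, which remove the amino propeptides of fibrillar procollagens, did not run in one direction. Adamts14 was at 3.65, 5.97 and 4.23 FPKM in FP libraries 11, 14 and 16 and at 0.985, 0.963 and 2.02 FPKM in RR. Every FP library exceeded every RR library, with means of 4.62 ± 1.21 FPKM in FP and 1.32 ± 0.604 FPKM in RR (SD, n = 3 each), a ratio of 3.49. The log2 difference was 1.28 ± 0.32 (SE, 95% confidence interval 0.55 to 2.01), with the smallest p of the 31 tested genes, and it did not pass (limma adjusted p = 0.157). About 74.2, 61.5 and 59.1 fragments lay behind it in FP and 13.1, 8.4 and 30.0 in RR. The gene lies at chr10:61197112-61273438 on the minus strand, with no overlapping gene in the annotation. Adamts2 ran the other way, at 2.13, 3.65 and 1.73 FPKM in FP and 4.17, 4.13 and 3.20 FPKM in RR, overlapping at FP 14 (log2 difference -0.50, limma adjusted p = 0.672). Adamts3, the most abundant of the trio, was at 13.9, 11.9 and 14.4 FPKM in FP and 12.5, 7.45 and 13.2 FPKM in RR (log2 difference 0.29, limma adjusted p = 0.822).

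Adamts6, Adamts10 and Adamts17 are tied to fibrillin microfibrils, and none of them passed. Adamts6 was at 3.69, 2.18 and 2.97 FPKM in FP libraries 11, 14 and 16 and at 8.58, 6.12 and 6.41 FPKM in RR. All FP values lay below all RR values, with means of 2.95 ± 0.756 FPKM in FP and 7.03 ± 1.34 FPKM in RR (SD, n = 3 each). The log2 difference was -1.03 ± 0.28 (SE, 95% confidence interval -1.66 to -0.40), which did not pass (limma adjusted p = 0.189). The gene lies at chr13:104287835-104496695 on the plus strand. Adamts17, whose human counterpart is mutated in a Weill-Marchesani-like syndrome, was at 0.831, 1.18 and 0.575 FPKM in FP and 2.59, 1.83 and 3.13 FPKM in RR. These groups did not overlap either (log2 difference -0.91 ± 0.35, SE, limma adjusted p = 0.40). Adamts10, the closest relative of Adamts6 and the most abundant ADAMTS gene in every library, was at 18.2, 32.8 and 30.1 FPKM in FP and 23.2, 32.6 and 35.9 FPKM in RR. Its values overlapped and its log2 difference was -0.19 (95% confidence interval -0.91 to 0.52, limma adjusted p = 0.906), or 0.06 without FP 11.

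The proteoglycan-cutting ADAMTS genes were of low or middling level. Adamts1 was at 7.29, 6.94 and 3.86 FPKM in FP libraries 11, 14 and 16 and at 1.87, 3.30 and 2.76 FPKM in RR. No FP library was as low as any RR library (log2 difference 0.93 ± 0.32, SE, limma adjusted p = 0.326). Adamts9, which cuts versican, ran from 5.18 to 6.68 FPKM in FP and from 6.22 to 10.1 FPKM in RR. The aggrecanases of arthritic cartilage had means below 1 FPKM and were not tested: Adamts4 was at 1.06, 0.264 and 0.676 FPKM in FP and 0.808, 1.998 and 0.907 FPKM in RR. Adamts5 was at 0.409, 0.638 and 0.636 FPKM in FP and 0.621, 1.28 and 0.558 FPKM in RR. Both overlapped between the layers, and their substrate aggrecan, Acan, was at 2078, 1333 and 1859 FPKM in FP and 976, 588 and 1259 FPKM in RR, or 1757 ± 383 FPKM in FP and 941 ± 337 FPKM in RR (SD, n = 3 each, limma adjusted p = 0.456). Adamts8, Adamts15 and Adamts20 were also below a mean of 1 FPKM.

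Adamts7 and Adamts12, which can cut cartilage oligomeric matrix protein, were at 0.623 to 2.74 FPKM in FP and 1.5 to 2.999 FPKM in RR for Adamts7, and at 1.90 to 2.50 FPKM in FP and 2.62 to 3.54 FPKM in RR for Adamts12. The groups did not overlap for Adamts12 (log2 difference -0.35, limma adjusted p = 0.763). Adamts13, known for cutting von Willebrand factor, ran from 0.935 to 3.91 FPKM in FP and from 1.41 to 6.34 FPKM in RR. Adamts16, Adamts18 and Adamts19 were not tested. Of the ADAMTS-like genes, Adamtsl1, Adamtsl3 and Adamtsl4 were tested, with log2 differences of -0.13, 0.15 and -0.12, and Adamtsl2 and Adamtsl5 were not.

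The HTRA family was carried by 2 secreted members. Htra1, which can cut proteoglycans and fibronectin, was at 40.2, 37.1 and 52.5 FPKM in FP libraries 11, 14 and 16 and at 67.4, 36.0 and 78.8 FPKM in RR (log2 difference -0.42, 95% confidence interval -1.20 to 0.36, limma adjusted p = 0.770). Htra3, its close relative, was at 40.0, 42.8 and 52.4 FPKM in FP, against 26.1, 27.8 and 52.2 FPKM in RR (log2 difference 0.40, 95% confidence interval -0.33 to 1.14, limma adjusted p = 0.765). Both overlapped between the layers, and RR 16 was the highest RR library for each. Htra2, a protease of mitochondria, was at 17.6, 24.4 and 14.5 FPKM in FP and 11.98, 7.01 and 18.4 FPKM in RR, but 31.0% of its exonic bases overlap Loxl3 on the opposite strand. No source at hand says whether strand was used in counting, so the reads of such overlaps cannot be told apart. Htra4 was not tested.

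**Figure D4:**
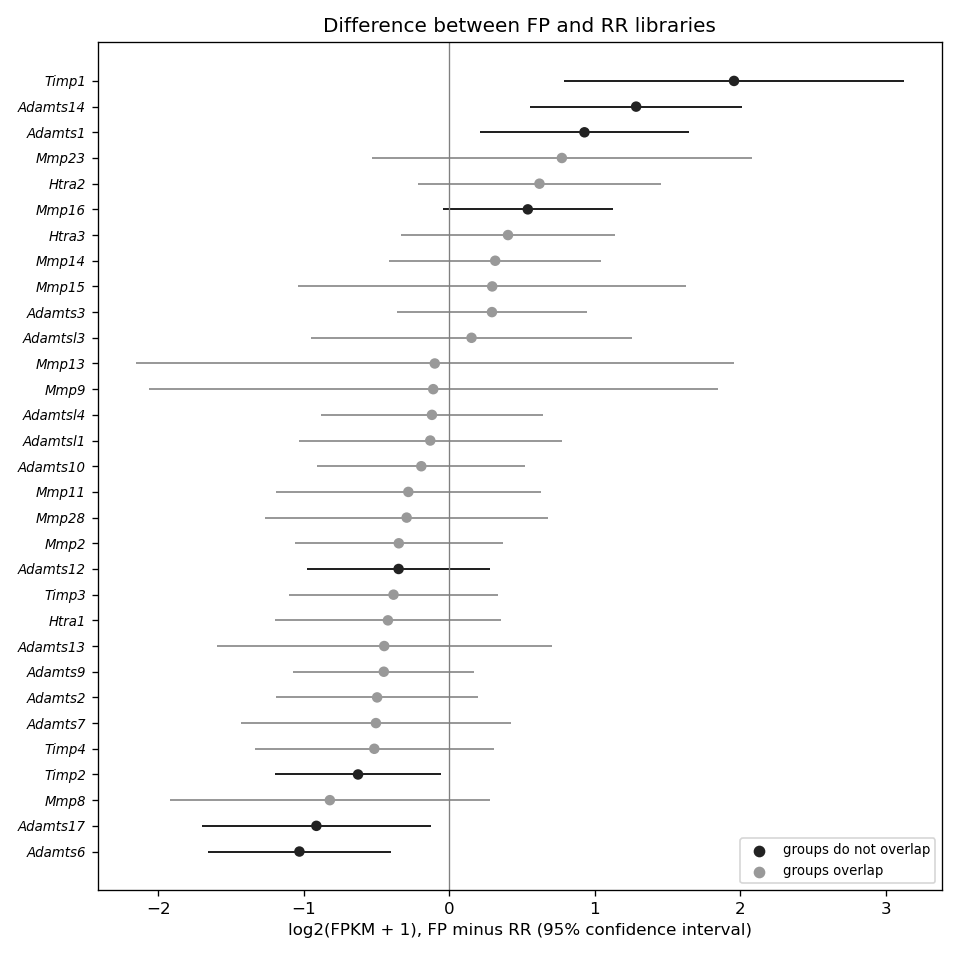
Log2 difference on the log2(FPKM + 1) scale, FP minus RR, with its 95% confidence interval, for the 31 tested genes in order of size. Black marks the 8 genes whose groups do not overlap, with Timp1 at 1.96 at one end and Adamts6 at -1.03 at the other, and the intervals of Mmp13 and Mmp9 are the widest.

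Other genes that process, inhibit or feed this system were counted by role. Of 8 tested inhibitors outside the TIMPs, 3 passed the threshold as lower in FP and 0 as higher, against 0.412% lower and 0.554% higher over all tested genes. By estimate 7 of the 8 were lower in FP and 1 was higher. A2m, alpha-2-macroglobulin, which traps proteases of all classes, was at 2.22, 2.15 and 1.42 FPKM in FP libraries 11, 14 and 16 and at 24.1, 8.60 and 21.6 FPKM in RR (log2 difference -2.60 ± 0.39, SE, limma adjusted p = 0.0228). Serpine2, protease nexin 1, was at 24.9, 15.6 and 16.8 FPKM in FP, against 129, 53.3 and 110 FPKM in RR (log2 difference -2.23 ± 0.38, SE, limma adjusted p = 0.0342). Spock1, testican 1, was at 2.93, 1.59 and 0.961 FPKM in FP, against 11.6, 8.97 and 10.6 FPKM in RR (log2 difference -2.06 ± 0.32, SE, limma adjusted p = 0.0254). All 3 fell in FP, and the groups did not overlap for any of them.

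The astacin proteinases that remove procollagen carboxy propeptides, with their enhancers, gave 1 of 4 tested genes past the threshold. This gene was higher in FP, and 0.554% of all tested genes passed as higher in FP. The gene was Pcolce2, a procollagen C-proteinase enhancer, at 112, 51.5 and 68.3 FPKM in FP libraries 11, 14 and 16 and at 12.2, 3.21 and 10.8 FPKM in RR (log2 difference 3.10 ± 0.48, SE, limma adjusted p = 0.0256). Of 15 tested substrates, 2 rose in FP (Col10a1 and Comp) and 2 fell (Fbn1 and Dcn), against 0.554% higher and 0.412% lower over all tested genes. Col10a1 is also one of the hypertrophic markers above. Fbn1, fibrillin 1 of the microfibrils, was at 14.8, 10.1 and 12.3 FPKM in FP, against 47.6, 31.3 and 46.8 FPKM in RR (log2 difference -1.67 ± 0.28, SE, limma adjusted p = 0.0341), and Dcn, the proteoglycan decorin, was at 59.2, 58.2 and 38.3 FPKM in FP and 294, 147 and 206 FPKM in RR, a log2 difference of -2.003 ± 0.34 (SE, limma adjusted p = 0.0341). Col10a1, collagen X, was at 353, 381 and 298 FPKM in FP and 2.99, 4.19 and 13.98 FPKM in RR. Comp, the cartilage oligomeric protein named above, stood at 2473, 2485 and 2809 FPKM in FP and 151, 243 and 268 FPKM in RR. Col10a1 and Comp had log2 differences of 5.66 ± 0.47 and 3.58 ± 0.33 (SE, limma adjusted p = 0.00202 and 0.0031).

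With 5 libraries in place of 6, several of these calls were lost while the differences kept their size. In fits that left out a single library, Fbn1 and Dcn no longer passed without any one of the 6 (limma adjusted p up to 0.176 and 0.20). A2m and Serpine2 no longer passed without FP 11, FP 14, FP 16, RR 11 or RR 16 (up to 0.119 and 0.176), Spock1 without FP 14, FP 16, RR 11, RR 14 or RR 16 (up to 0.119), and Pcolce2 without FP 11, FP 14, FP 16 or RR 16 (up to 0.114). Over these fits the log2 difference ran from -1.87 to -1.54 for Fbn1, from -2.25 to -1.75 for Dcn, from -3.03 to -2.34 for A2m, from -2.61 to -1.98 for Serpine2, from -2.33 to -1.82 for Spock1 and from 2.57 to 3.40 for Pcolce2. Col10a1 and Comp passed in all 6 of these fits, but neither passed without both libraries of number 14 (limma adjusted p = 0.0588 for each), nor Comp without both of number 16 (0.0757).

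In limma without the library number, no gene passed among 9 tested ADAM genes, 8 clearance receptors and surface partners, and 2 enzymes that glycosylate thrombospondin repeats. None passed among 13 convertases and activating proteases, a count that takes in the receptor Plaur. None passed among 13 transcription factors reported for MMP13 and ADAMTS genes, a count that takes in the corepressor Hdac4. The gene with the smallest p in each of these lists follows. Pcsk6, a proprotein convertase that cuts precursor proteins, was at 17.3, 21.6 and 15.9 FPKM in FP libraries 11, 14 and 16 and at 7.47, 8.78 and 9.53 FPKM in RR (log2 difference 1.003 ± 0.25, SE, limma adjusted p = 0.159). Mef2c, a transcription factor of chondrocyte hypertrophy, was at 35.4, 16.1 and 16.5 FPKM in FP, against 8.79, 3.79 and 2.29 FPKM in RR (log2 difference 2.04 ± 0.46, SE, limma adjusted p = 0.112). The groups did not overlap for Pcsk6, Mef2c, or the genes Pofut2, Adam23 and Mrc2 below, as for 16% of all tested genes. Each was picked for the smallest p of its list, so this describes them and no more. Pofut2, which fucosylates the thrombospondin repeats of ADAMTS proteins, was at 63.7, 75.4 and 74.8 FPKM in FP and 40.2, 39.1 and 46.8 FPKM in RR, a log2 difference of 0.75 ± 0.24 (SE, limma adjusted p = 0.30). Adam23, a membrane protein without protease activity, stood at 2.28, 1.07 and 2.11 FPKM in FP and 3.19, 3.90 and 5.32 FPKM in RR (log2 difference -0.87, limma adjusted p = 0.372). Mrc2, an endocytic collagen receptor, was at 40.2, 43.3 and 51.1 FPKM in FP and 58.9, 60.1 and 118 FPKM in RR (log2 difference -0.73, limma adjusted p = 0.497).

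**Figure D5:**
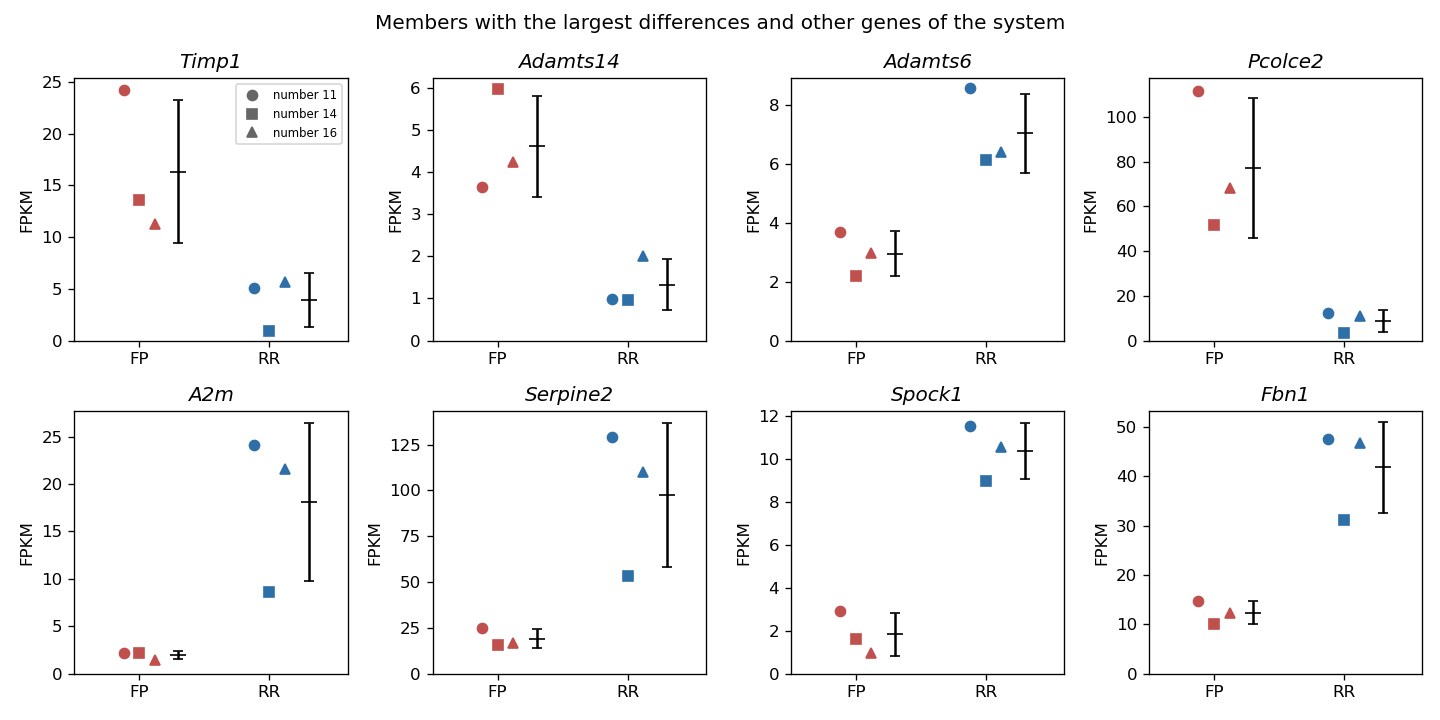
FPKM of Timp1, Adamts14, Adamts6, Pcolce2, A2m, Serpine2, Spock1 and Fbn1, with FP in red left of RR in blue. Points are libraries with the marker shape giving the number, and the black bar beside them is the mean with its SD (n = 3). In each panel all values of one group exceed all of the other, with FP above RR for Timp1, Adamts14 and Pcolce2.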

How the data were processed

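RNA-seq was done on laser-captured cartilage layers, 3 libraries with the title code FP and 3 with RR, and the labels name the SMARTer Stranded pico-input kit for total RNA. The authors deposited 1 FPKM value per gene symbol and library, per the file headers. Cuffdiff 2.2.1, SAMtools 0.1.18, Bowtie2 2.2.8, TopHat2 2.1.1 and the build mm10 are named in the submitters' processing notes. The order of these steps, the annotation, the use of strand and any scaling between libraries are stated in no source at hand.

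From the FPKM values, log2(FPKM + 1) was tested for FP minus RR with limma 3.58.1 (R 4.3.3; two-sided, moderated with an intensity trend) in the 14789 genes averaging at least 1 FPKM. Benjamini-Hochberg adjusted p under 0.05 over all of them counted as past the threshold. The fit was tested on simulated data. Depth per library was read from the steps of low values of genes with 1 annotated transcript: 73.1% to 76.6% were whole within 0.1 fragments, against 20% by chance. The total number of fragments is unknown, and 1 library (RR 14) was 2.32 times shallower than the deepest if libraries were not rescaled. Rpph1 alone held 23.6% to 41.0% of all FPKM in a library, so FPKM levels move with small RNA content.

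The genes, lists and tests were chosen with earlier results of these data known. Values are given by library for members past the threshold in this fit or in one with the library number. The same holds for members with a log2 difference of at least 1 and no overlap, with means of at least 20 FPKM, or best known in cartilage. Of each partner list, the genes called in this fit and the top gene are given by library. The marker genes, Acan and the other members given by library (Adamts1, Adamts2, Adamts3, Adamts17, Mmp8, Mmp16, Mmp23 and Htra2) were chosen after their values were seen. All 55 symbols had a GENCODE M21 position, and promoter windows came from RefSeq (GRCm38.p6). There were 20 alternatives, covering pseudocount, filter, scaling, trend, weights, library number and leaving libraries out.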

Additional observations from a re-analysis of the deposited data

How the results depend on the processing

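Of the 31 genes, 0 passed where tested, in every alternative but the one below. These alternatives cover pseudocounts, filters, scalings, no intensity trend, library weights and every left-out library. The genes tested change with the filter and with the libraries left out. At 5 FPKM only 14 members were tested, so the member median given for that filter covers fewer genes. The count of called genes over the whole table, 143, ran from 42 to 85 without a single library, and was 83 without the intensity trend, and 42, 8 and 20 without both libraries of number 11, 14 and 16. Rescaling without the highest genes moved the median of all genes to -0.12 from 0.02 on the log2 scale and gave 72 higher and 88 lower calls, against 82 and 61. Quantile normalization gave 66 higher and 65 lower. The median over the members, -0.19, was -0.26 with a pseudocount of 0.1, -0.11 with a filter at 5 FPKM, -0.37 with that rescaling, -0.12 and -0.31 without both libraries of number 11 or 16, and -0.30 (without FP 11) to -0.13 without a single library. Without a single library, the log2 difference ran from -0.89 to 0.88 for Mmp13 and from -0.99 to 0.70 for Mmp9. Directions were followed only for the members that met the rule for values by library, and not for the other tested members. Among those followed, the direction turned for Adamts10 without FP 11 (0.060). For Mmp13 it turned without FP 14 (0.22), FP 16 (0.36), RR 11 (0.88) or both libraries of number 11 (0.095). For Mmp9 it turned without FP 16 (0.53), RR 11 (0.70) or both of number 11 (0.10). Without the intensity trend, Pcolce2, Serpine2, Fbn1 and Dcn did not pass (limma adjusted p = 0.0511, 0.065, 0.0676 and 0.0612). The cause of these shifts was not tested. Depth limits the 24 untested genes and Timp1 in RR 14, at about 1.3 fragments.

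The labels do not say what the library number is. Deviations from the group means correlated across genes at 0.319, 0.185 and 0.089 between libraries of the same number (11, 14 and 16), and every library correlated best with its own number, a hint from the data and not the design. With the number as a replicate block in limma, 271 genes (1.83%) passed and 0 of the 31, with a smallest adjusted p of 0.0784. With the number as a random effect, 412 genes (2.79%) passed and 3 of the 31: Adamts14 and Timp1 higher in FP (limma adjusted p = 0.0461 and 0.0477) and Adamts6 lower (0.0459). Among partner genes not called without the number, Mef2c, Cst3 and Matn3 passed with the block and with the random effect. In that order of fits, limma adjusted p was 0.0124 and 0.0153 for Mef2c. It was 0.0172 and 0.0232 for the inhibitor Cst3, lower in FP, and 0.029 and 0.0401 for the substrate Matn3, higher in FP. Pcsk6 passed with the random effect only (0.0399). For Adamts14, Timp1 and Adamts6 the adjusted p ran over the alternatives to 0.766, 0.537 and 0.714.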
